A study of Mus musculus with 16 samples.

Results

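The subject is NF-kB, a family of transcription factors, and the proteins that hold it in check: 10 genes of the 24974 that both count tables of the series list. The members were taken by gene symbol. They are the 5 subunit genes Nfkb1, Nfkb2, Rel, Rela and Relb, the 4 inhibitor genes Nfkbia, Nfkbib, Nfkbie and Nfkbid, and Tnfaip3, which encodes A20. The study removed Tox4, the gene of a chromatin protein, from mouse T cells and measured polyA RNA by strand-specific bulk RNA-seq in thymocytes with both coreceptors, called double-positive (DP), and in CD8 thymocytes. Control mice had the genotype Tox4;F/F, with loxP sites around exons 4 to 6 and no Cre, and conditional knockout (cKO) mice had Tox4;F/F;Lck-cre, in which the proximal Lck promoter drives Cre in developing T cells. Each genotype had 3 DP samples and 5 CD8 samples. By the study's methods the mice were littermates of matched sex, 6 to 8 weeks old, the DP cells were sorted, the CD8 cells were sorted as TCRb+ CD8+ thymocytes, and the purity of sorted cells is stated as above 95%. The labels do not say whether each sample is a different animal, so the p-values below measure the spread between samples.

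NF-kB dimers form from RelA, c-Rel and RelB, which carry activation domains, and from the processed products of Nfkb1 and Nfkb2, which lack such a domain. IkB proteins keep the dimers inactive in the cytoplasm until IkB kinase marks them for breakdown, and NF-kB switches on several of its own inhibitors and A20, which closes a feedback loop. In the thymus the pathway is known for its part in survival, selection and the maturation of single-positive T cells downstream of the T cell receptor and of receptors of the TNF family.

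Because this feedback runs through the genes' own promoters, the stretches that match the kB consensus, a motif of 10 bases given here by name, are shown first. RefSeq windows on GRCm38.p6 were available for 8 of the 10 members (13 windows, since some genes have several starts), and Nfkb1 and Relb are named only. Both strands of the 250 bases before each start were searched. At least 1 match lay in 6 of the 8 members (75%) and in 8 of their 13 windows (61.5%), beside 1281 of all 32851 windows (3.9%) and 1204 of all 27025 genes (4.46%). The windows of Nfkbib and Rela held none. The stretches below, 30 bases each and read 5′ to 3′ on the gene's strand, carry the match in capitals.
Nfkbia, chr12:55492657-55492686, minus strand: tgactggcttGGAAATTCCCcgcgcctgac
Nfkbid, chr7:30422170-30422199, plus strand: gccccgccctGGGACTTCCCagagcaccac
Nfkbid, chr7:30422215-30422244, plus strand: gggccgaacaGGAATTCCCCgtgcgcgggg
Tnfaip3, chr10:19015516-19015545, minus strand: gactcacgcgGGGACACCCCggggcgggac
Tnfaip3, chr10:19015411-19015440, minus strand: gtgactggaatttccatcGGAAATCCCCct
Rel, chr11:23771041-23771070, minus strand: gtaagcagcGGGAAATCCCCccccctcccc
Nfkb2, chr19:46304689-46304718, plus strand: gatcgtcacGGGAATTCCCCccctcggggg
Nfkbie, chr17:45555584-45555613, plus strand: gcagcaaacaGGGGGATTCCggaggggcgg
In Rel and Nfkb2 the capitals join 3 overlapping matches, because the motif matches on both strands there. The Nfkbia match began 29 bases before the start (position -29), and those of Tnfaip3 at -125 and -12. The 2 matches of Nfkbid began at -226 and -181, counted from a start inside the gene's span. The match of Rel began at -92, that of Nfkbie at -106 and that of Nfkb2 printed here at -39. The printed Nfkb2 stretch overlaps annotated exons of Nfkb2 and of AC114539.1. Nfkb2 had 3 further matches that are not printed, at -11 in the same window and at -236 and -225 in its 2 other windows with a match. A match is a description of letters, and binding was not measured in these data.

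Total counts ranged from 16524506 to 18484568 in DP control, from 14583336 to 25981683 in DP cKO, from 9420085 to 13530783 in CD8 control and from 8514135 to 11828492 in CD8 cKO. In replicate order they were 16524506, 18484568 and 17221704 in DP control, and 21154634, 14583336 and 25981683 in DP cKO. In CD8 cells they were 9420085, 10882293, 9899833, 10949265 and 13530783 in control, and 11687062, 11828492, 8905915, 8894000 and 8514135 in cKO. Every DP library was thus deeper than every CD8 library. Levels below are normalized CPM, counts scaled to library size by TMM over all 16 samples, unless TPM, which also divides by gene length, is named, and different genes are compared by TPM alone.

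The deleted gene came first as a check of the groups. Tox4, at 14:52279146-52295509 (mm10), read 149, 165 and 175 CPM in DP control and 128, 135 and 129 in DP cKO. In CD8 control it read 199, 191, 204, 207 and 183, and in CD8 cKO 173, 189, 178, 237 and 168. The 3 DP cKO samples lay below the 3 controls, while the CD8 groups overlapped and the library labelled CD8 cKO replicate 4 stood above every CD8 control. The log2 fold change of Tox4 was -0.32 ± 0.11 (SE, 3 against 3; edgeR adjusted p = 0.381) in DP and -0.06 ± 0.10 (5 against 5; edgeR adjusted p = 0.979) in CD8. The difference between these effects was 0.26 (edgeR adjusted p = 0.950). Counts over the whole gene include reads outside exons 4 to 6. The study reports efficient deletion by Western blot of unsorted and sorted thymocytes. Neither Tox4 change was called here, and in CD8 cells the genotype rests on the labels.

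The cell type labels were checked on markers. Of 10 DP markers, 9 were called lower in control CD8 cells (and 0 higher), and of 10 mature CD8 markers 8 were called higher and 1 lower. Over all genes 23.1% were called lower and 22.8% higher. The DP markers summed to 19110, 15760 and 17320 CPM in DP control and to 3026, 3073, 2852, 2706 and 2750 in CD8 control. By mean TPM Rag1 was the most abundant of them in both DP groups and Cd8b1 in both CD8 groups. In the cKO samples they summed to 17190, 14600 and 14990 in DP, and to 2695, 2684, 2499, 3052 and 2538 in CD8. The mature CD8 markers, of which Cd8b1 had the highest mean TPM in each group, summed to 4177, 3621 and 3705 in DP control and to 6102, 5350, 7236, 7454 and 6644 in CD8 control. In DP cKO this sum was 3446, 2825 and 3199, and in CD8 cKO it was 5241, 5193, 7206, 8042 and 6186. Cd8a and Cd8b1 are in both lists, and 0 of the markers on either list were at 0 in a sample. The log2 difference between control CD8 and DP cells was -7.23 for Rag1, -5.00 for Dntt and -4.28 for Arpp21, and 7.76 for S1pr1, 6.48 for Itgae, 5.56 for Nkg7 and 4.09 for Runx3.

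Some libraries stood apart in both genotypes. In DP cells, replicate 1 of each genotype was low in immediate early genes, which cells switch on within minutes of a stimulus. Jun read 40.6 in DP control replicate 1 against 436 and 623 in replicates 2 and 3, and 45.9 in DP cKO replicate 1 against 391 and 489. Fos read 15.8 against 111 and 197 in DP control, and 16.9 against 64.3 and 102 in DP cKO. In CD8 cells, replicates 1 and 2 of each genotype read higher for Cd4 and lower for Klf2. Cd4 read 61.6 and 66.4 in CD8 control replicates 1 and 2 and 3.67 to 10.5 in the others, and 68.4 and 77.7 in CD8 cKO replicates 1 and 2 against 5.88 to 7.28. Klf2 read 341 and 263 in CD8 control replicates 1 and 2 against 718 to 949 in the others, and 248 and 267 against 462 to 893 in CD8 cKO. CD8 control replicate 1 also had 17741 genes with a count, where the other CD8 libraries had 13708 to 15054. The library labelled CD8 cKO replicate 4 had the highest Fos of the CD8 samples, 294 against 42.6 to 85.6.

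**Figure D1:**
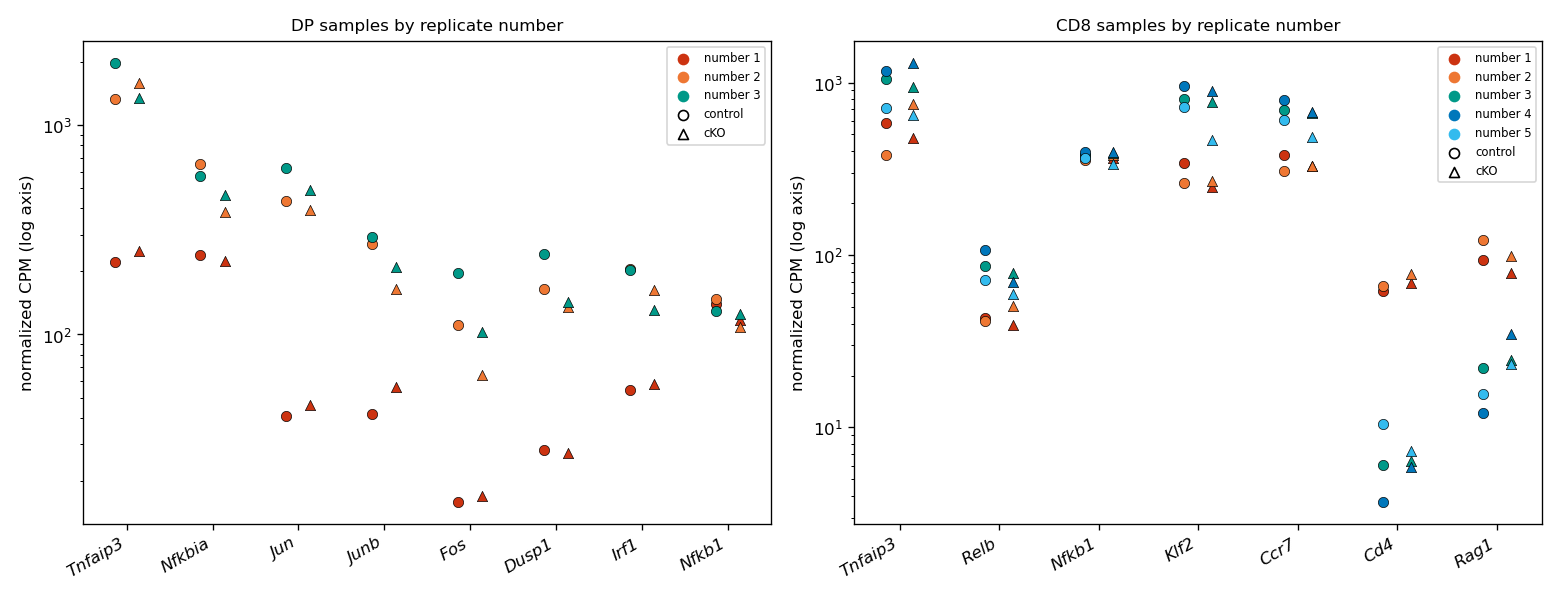
Normalized CPM on a log axis by replicate number (colour) and genotype (circle: control, triangle: cKO) for genes of the DP samples (left) and of the CD8 samples (right). Number 1 is lowest for Tnfaip3 in DP cells (222 and 251), and Relb in CD8 cells is lowest at numbers 1 and 2 in both genotypes, while Nfkb1 lies close together in each cell type.

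The first comparison asks whether loss of Tox4 moves the members within a cell type. A gene is named called when its Benjamini-Hochberg adjusted p over all genes tested was under 0.05, its fold change at least 1.5 and its mean TPM at least 1. All 10 members passed the filter on low counts in both cell types. In DP cells edgeR called 0 of the 10 members, beside 17 of 11187 genes (0.152%), a count that was 159 with DESeq2 and 0 to 8 with any 1 library left out. DESeq2 also called 0 members, and 3 members had an unadjusted edgeR p under 0.05 (9.07% of genes did). In CD8 cells edgeR called 0 of 10, beside 11 of 11069 genes (0.0994%), or 31 genes (0.28%) and again 0 members with replicate number as a block. That count of 11 was 53 with DESeq2, 4, 6 and 7 without CD8 control replicates 3 and 5 and CD8 cKO replicate 3, and 20 without the library labelled CD8 cKO replicate 4. DESeq2 called 0 of the members there too, and 0 had an unadjusted edgeR p under 0.05 (5.55% of genes did). The test of the difference between the 2 effects called 0 members in edgeR and in DESeq2, beside 13 of 12131 genes (0.107%) in edgeR. That count of 13 was 33 with the replicate block, 37 with DESeq2 and 0 to 11 with any 1 library left out. An unadjusted edgeR p under 0.05 was found for 0 members, beside 639 of the 12131 genes. Of the 10 log2 fold changes, 8 were negative in DP and 8 in CD8, with a median over the members of -0.21 in DP (-0.0012 over all genes tested) and -0.04 in CD8 (-0.01 over all genes tested). Each cKO sample read below each control for 2 members in DP, Nfkb1 and Nfkbid, and above it for 0 members. Of the genes tested with a mean TPM of at least 1, 7.25% and 7.86% did so. In CD8 the members counted in this way were 0 lower and 0 higher, beside 0.641% and 0.858% of such genes. With 1 library left out at a time, the DP values of Nfkb2, Rela, Nfkbie and Tnfaip3 changed sign, within -0.65 to 0.44. So did the CD8 values of every member except Relb and Nfkbib, within -0.25 to 0.27, while the count of members called was 0 each time.

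The second comparison, control CD8 against control DP cells, asks how the members differ between the populations. Here edgeR called 5 of the 10 members higher in CD8 (22.8% of 11364 genes) and 1 lower (23.1%). In 6 members every CD8 control exceeded every DP control, beside 27.2% of genes. The same contrast in the cKO samples called 5 members higher, beside 23.3% of 11386 genes, and 0 lower, beside 26.8%. DESeq2 called 0 lower there as well, and 0 of the 3 negative members (Nfkbia, Nfkbie and Tnfaip3) had an unadjusted edgeR p under 0.05. The members' median log2 difference was 0.74 in control and 0.62 in cKO samples (-0.01 and -0.06 over all genes tested). Cell type cannot be told apart from table, depth and preparation in this contrast, and in bulk RNA fewer cells of a type and less RNA per cell cannot be told apart.

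**Figure D2:**
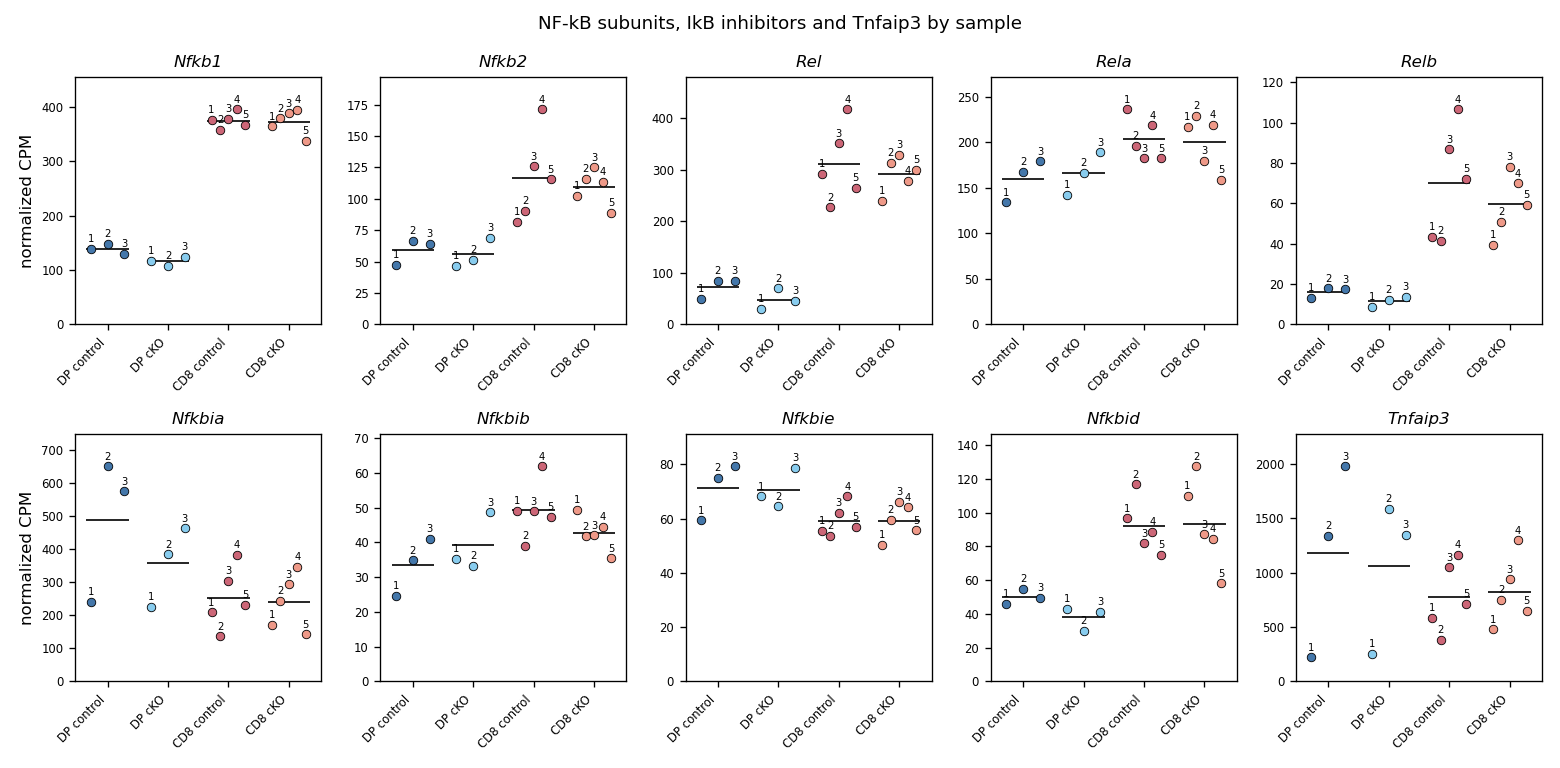
Normalized CPM of each member in every sample, numbered by replicate, with a line at each group's mean (3 DP control, 3 DP cKO, 5 CD8 control and 5 CD8 cKO samples). Nfkb1 lies between 108 and 148 in DP and between 338 and 396 in CD8, while Tnfaip3 spans 222 to 1976 within the DP controls alone.

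Nfkb1, at 3:135584655-135691547, encodes the precursor of the subunit that pairs with RelA in the classical dimer. It read 139, 148 and 129.9 in DP control and 117, 108 and 125 in DP cKO. In CD8 control it read 377, 358, 378, 396 and 367, and in CD8 cKO 364, 379.6, 389, 394 and 338. The lowest DP control stood just above the highest DP cKO sample, and the CD8 groups overlapped over a narrow band that lay above every DP sample. The log2 fold change of Nfkb1 in DP was -0.26 ± 0.11 (SE; edgeR adjusted p = 0.5262), lower in 3 of 3 cKO samples, with an exact permutation p of 0.1, the smallest that 3 against 3 samples allow (two-sided). It was -0.26 with DP replicates 2 and 3 alone. In CD8 it was -0.01 ± 0.08 (edgeR adjusted p = 0.999), and 0.0011, 0.01, 0.0051 and 0.03 without CD8 control replicates 3 and 4 and CD8 cKO replicates 1 and 5, each in turn. The effects in the 2 cell types differed by 0.25 ± 0.12 (edgeR adjusted p = 0.950). Between control CD8 and DP cells the log2 difference was 1.46 ± 0.09, or 2.75-fold (edgeR adjusted p = 1.3e-07), and between the cKO groups it was 1.67 ± 0.11 (edgeR adjusted p = 9e-08). With CD8 replicates 3 to 5 alone these were 1.48 and 1.695.

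Rel encodes c-Rel, the lymphoid subunit, at 11:23736850-23770969, and its window holds the match printed above. It read 49.7, 84.6 and 84.0 in DP control and 29.7, 69.6 and 44.9 in DP cKO. CD8 control samples read 292, 227, 352, 417 and 265, and CD8 cKO samples 239.5, 314, 329, 278 and 300.5. Replicate 1 was the lowest DP sample of each genotype and the DP groups overlapped, as did the CD8 groups, and every CD8 sample lay above every DP sample. In DP the log2 fold change of Rel was -0.60 ± 0.31 (edgeR adjusted p = 0.622), the most negative of the 10 members in this fit, and -0.56 with DP replicates 2 and 3 alone. Without DP cKO replicate 2 it was -0.98, and without DP cKO replicate 1 it was -0.35, where Nfkbid (-0.49) was more negative. In CD8 it was -0.09 ± 0.15 (edgeR adjusted p = 0.979), -0.18 with replicates 3 to 5 alone and 0.04 without CD8 control replicate 4, and the effects differed by 0.51 ± 0.33 (edgeR adjusted p = 0.950), and by 0.27 to 0.88 with 1 library left out. From control DP to control CD8 the difference was 2.12 ± 0.23, or 4.34-fold (edgeR adjusted p = 1e-05), and 2.28 (edgeR adjusted p = 1.3e-05) with CD8 replicates 3 to 5 alone. Among cKO samples it was 2.60 ± 0.24 (edgeR adjusted p = 1.5e-06).

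Relb, at 7:19606222-19629438, encodes the subunit of the non-canonical branch of the pathway. DP control samples read 13.2, 17.8 and 17.3, and DP cKO samples 8.79, 12.2 and 13.7. In CD8 control it read 43.3, 41.5, 86.8, 107 and 72.0, and in CD8 cKO 39.3, 50.8, 78.2, 69.9 and 59.3. In DP the lowest control, replicate 1, lay inside the cKO range, so the groups overlapped by that sample. In CD8 cells replicates 1 and 2 of both genotypes were the lowest, the same libraries that held more Cd4 and less Klf2. The log2 fold change of Relb was -0.48 ± 0.21 in DP (edgeR adjusted p = 0.535), -0.45 with replicates 2 and 3 alone and -0.32 without DP cKO replicate 1. Its CD8 value was -0.23 ± 0.25 (edgeR adjusted p = 0.979), -0.35 with replicates 3 to 5 alone. Leaving out CD8 control replicate 1, 2, 3 or 4 gave -0.36, -0.37, -0.14 and -0.03, and leaving out CD8 cKO replicate 1 or 3 gave -0.11 and -0.35. The effects differed by 0.24 ± 0.40 (edgeR adjusted p = 0.974), and by 0.08 to 0.44 with 1 library left out. The log2 difference between control CD8 and DP cells was 2.15 ± 0.31, or 4.43-fold (edgeR adjusted p = 9.2e-05), and 2.49 (edgeR adjusted p = 1.3e-06) with CD8 replicates 3 to 5 alone. In cKO samples it was 2.36 ± 0.24 (edgeR adjusted p = 3e-06), or 2.59 with those replicates.

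Nfkb2, at 19:46304737-46312090, encodes the precursor whose product pairs with RelB. Its DP control values were 47.1, 66.4 and 64.1, and its DP cKO values 46.7, 51.5 and 69.0. The CD8 control values were 81.7, 90.6, 126, 171 and 115.5, and the CD8 cKO values 103, 116, 125, 113 and 88.7. The 2 genotypes overlapped in each cell type, and the highest DP sample lay below the lowest CD8 sample. Its log2 fold change was -0.09 ± 0.18 in DP (edgeR adjusted p = 0.930) and -0.10 ± 0.17 in CD8 (edgeR adjusted p = 0.979). It was 0.0049 in DP without DP control replicate 2, 0.02 there without DP cKO replicate 1, and 0.08 in CD8 without CD8 control replicate 4. It was -0.24 and -0.25 without DP control replicate 1 or DP cKO replicate 3, and -0.33 in CD8 with replicates 3 to 5 alone. Control CD8 exceeded control DP by 1.01 ± 0.22 on the log2 scale, or 2.01-fold (edgeR adjusted p = 0.00201), and by 1.25 with CD8 replicates 3 to 5 alone. The cKO samples gave 0.97 ± 0.15 (edgeR adjusted p = 0.000136).

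Rela, at 19:5637541-5648134, encodes the main activating subunit and varied least between cell types among the 5 subunits. It ranged from 134 to 179 in DP control, 142 to 189 in DP cKO, 182 to 236 in CD8 control and 159 to 229 in CD8 cKO. The lowest CD8 control stood just above the highest DP control, and the cKO groups overlapped. Rela differed by 0.37 ± 0.13 on the log2 scale between control CD8 and DP cells, or 1.29-fold, which passed the adjusted p (edgeR, 0.0240) and missed the fold change that a call needs. Without DP control replicate 1 it was 0.25 and missed the adjusted p as well (edgeR, 0.0983). In cKO samples the difference was 0.27 ± 0.15 (edgeR adjusted p = 0.116), and 0.36 (edgeR adjusted p = 0.0344) without CD8 cKO replicate 5. The cKO log2 fold change was 0.05 ± 0.15 in DP and -0.01 ± 0.11 in CD8 (edgeR adjusted p = 0.952 and 0.998). The DP value was -0.07 without DP control replicate 1 and -0.03 without DP cKO replicate 3. The CD8 value was 0.05 or 0.01 without CD8 control replicate 1 or 4, and 0.02 or 0.06 without CD8 cKO replicate 3 or 5.

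Nfkbia encodes IkB alpha, the inhibitor that NF-kB itself induces, at 12:55489409-55492647, with its match 29 bases before the start. It read 239.5, 650.0 and 574 in DP control and 225, 384 and 462 in DP cKO. Replicate 1 was the lowest in both genotypes, as it was for Jun and Fos, and the DP groups overlapped through it. In CD8 control it read 208, 136, 303, 382 and 231.5, and in CD8 cKO 172, 243, 293, 346 and 142. The DP log2 fold change of Nfkbia was -0.46 ± 0.36 (edgeR adjusted p = 0.781), and -0.54 (edgeR adjusted p = 0.103) with replicates 2 and 3 alone, in which both controls lay above both cKO samples. It was -0.79 and -0.19 without DP control replicate 1 or 2, and -0.21 without DP cKO replicate 1. In CD8 it was -0.07 ± 0.26 (edgeR adjusted p = 0.998), or -0.22 with replicates 3 to 5 alone. It turned to 0.0027 and 0.12 without CD8 control replicates 3 and 4, and to 0.03 and 0.07 without CD8 cKO replicates 1 and 5. The effects differed by 0.37 ± 0.49 (edgeR adjusted p = 0.970), and by 0.11 to 0.70 with 1 library left out.

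Nfkbia was the 1 member called lower in control CD8 than in control DP cells, by a log2 difference of -0.93 ± 0.33 (edgeR adjusted p = 0.0286). The groups overlapped, since DP control replicate 1 lay among the CD8 samples. The call depended on which libraries were used. Without DP control replicate 1 it held at -1.26 (edgeR adjusted p = 0.00357). Without DP control replicate 2 the value was -0.66 (edgeR adjusted p = 0.155), and without DP control replicate 3 it was -0.79 (edgeR adjusted p = 0.103). Leaving out CD8 control replicate 1, 2 or 5 gave -0.86, -0.76 and -0.89 (edgeR adjusted p = 0.0585, 0.0524 and 0.0567), and CD8 replicates 3 to 5 alone gave -0.64 (edgeR adjusted p = 0.0996). In the cKO samples the difference was -0.58 ± 0.28 (edgeR adjusted p = 0.0871). It was called there without DP cKO replicate 1 (-0.80, edgeR adjusted p = 0.0215) and without the library labelled CD8 cKO replicate 4 (-0.74, edgeR adjusted p = 0.0308). It was -0.35 (edgeR adjusted p = 0.358) without DP cKO replicate 3 and -0.44 (edgeR adjusted p = 0.236) with CD8 replicates 3 to 5 alone.

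Nfkbid, at 7:30421731-30428746, encodes an atypical IkB that acts in the nucleus. Both matches printed above lie in 1 of its 3 windows, before a start inside that span. The window before the span's first base holds 0 matches, as does the remaining window. Nfkbid read 46.1, 54.9 and 49.4 in DP control and 42.9, 29.97 and 41.4 in DP cKO. CD8 control samples read 96.8, 117, 81.9, 88.9 and 75.0, and CD8 cKO samples 110.0, 127, 87.3, 84.4 and 58.1. Each DP cKO sample lay below each DP control, replicate 2 the most. In CD8 cells replicates 1 and 2 of both genotypes were the highest, opposite to Relb, and the genotypes overlapped. The DP log2 fold change of Nfkbid was -0.40 ± 0.16 (edgeR adjusted p = 0.459), lower in 3 of 3 cKO samples, with an exact permutation p of 0.1 (two-sided). It was -0.55 with replicates 2 and 3 alone and -0.26 without DP cKO replicate 2. In CD8 it was 0.03 ± 0.18 (edgeR adjusted p = 0.998), or -0.09 with replicates 3 to 5 alone. It turned to -0.0072 and -0.04 without CD8 control replicates 3 and 5, and to -0.03 and -0.11 without CD8 cKO replicates 1 and 2. The effects differed by 0.42 ± 0.28 (edgeR adjusted p = 0.950), and by 0.28 to 0.55 with 1 library left out. Control CD8 exceeded control DP by 0.90 ± 0.15, or 1.87-fold (edgeR adjusted p = 0.000255), and by 0.74 with CD8 replicates 3 to 5 alone. Among cKO samples the difference was 1.29 ± 0.23 (edgeR adjusted p = 0.000309), or 1.02 with those replicates.

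The genes of IkB beta and IkB epsilon are Nfkbib at 7:28758251-28766644 and Nfkbie at 17:45555700-45563168. Nfkbib ranged from 24.6 to 41.1 in DP control, 33.3 to 48.7 in DP cKO, 39.1 to 61.9 in CD8 control and 35.4 to 49.4 in CD8 cKO, with overlap between every pair of groups compared. Its cKO log2 fold change was 0.22 ± 0.21 in DP (edgeR adjusted p = 0.833) and -0.21 ± 0.13 in CD8 (edgeR adjusted p = 0.979), a difference of -0.43 ± 0.25 (edgeR adjusted p = 0.950) that ran from -0.60 to -0.24 with 1 library left out. The DP value was 0.04 and 0.38 without DP control replicate 1 or 3 and 0.05 without DP cKO replicate 3, and the CD8 value was -0.11 without CD8 control replicate 4 and -0.37 with CD8 replicates 3 to 5 alone. Control CD8 against control DP gave Nfkbib 0.58 ± 0.18 (edgeR adjusted p = 0.0157), just short of a 1.5-fold change, while the cKO samples gave 0.12 ± 0.16 (edgeR adjusted p = 0.510), and 0.03 to 0.31 with 1 library left out. Without DP control replicate 1 the control value was 0.40 (edgeR adjusted p = 0.0670), and it was called at 0.69 with CD8 replicates 3 to 5 alone. It was also called without DP control replicate 2 (0.62) or 3 (0.76), and without CD8 control replicate 1 (0.59), 2 (0.66), 3 (0.59) or 5 (0.60). Nfkbie ranged from 59.4 to 79.3 in DP control, 64.6 to 78.8 in DP cKO, 53.6 to 68.3 in CD8 control and 50.4 to 66.1 in CD8 cKO. Its log2 difference between control CD8 and DP cells was -0.24 ± 0.13 (edgeR adjusted p = 0.121), and -0.26 ± 0.13 (edgeR adjusted p = 0.0902) among cKO samples. Without DP control replicate 1 the former was -0.36 (edgeR adjusted p = 0.0274), which passed the adjusted p and missed the fold change. It was -0.15 without DP control replicate 3, and the cKO value was -0.17 without DP cKO replicate 3. Its cKO log2 fold change was -0.02 ± 0.14 in DP (edgeR adjusted p = 0.983) and -0.0011 ± 0.10 in CD8 (edgeR adjusted p = 0.9998). The DP value turned to 0.03, 0.06, 0.0072 and 0.03 without DP control replicates 2 and 3 and DP cKO replicates 1 and 2, each in turn. The CD8 value turned to 0.02, 0.05, 0.05 and 0.02 without CD8 control replicates 3 and 4 and CD8 cKO replicates 1 and 5.

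Tnfaip3, at 10:19000910-19015410, encodes A20, a ubiquitin-editing enzyme that damps signals to IkB kinase. It read 222, 1338 and 1976 in DP control and 251, 1587 and 1344 in DP cKO. Replicate 1 of each genotype lay far under the other DP samples, and the genotypes overlapped. In CD8 control it read 585, 382, 1048, 1160 and 715, and in CD8 cKO 479, 751, 938.5, 1295 and 645. The CD8 genotypes overlapped too, with the library labelled CD8 cKO replicate 4 the highest. The DP log2 fold change was -0.15 ± 0.76 (edgeR adjusted p = 0.972), the widest error of the 10 members. It was 0.44 without DP control replicate 3, 0.31 without DP cKO replicate 1 and -0.18 with replicates 2 and 3 alone. Its CD8 value was 0.08 ± 0.29 (edgeR adjusted p = 0.997), -0.01 with replicates 3 to 5 alone, -0.0013 and -0.09 without CD8 control replicate 1 or 2, and -0.14 without the library labelled CD8 cKO replicate 4. The effects differed by 0.23 ± 0.79 (edgeR adjusted p = 0.983), and by -0.36 to 0.72 with 1 library left out.

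Between control CD8 and DP cells Tnfaip3 differed by -0.57 ± 0.52 (edgeR adjusted p = 0.360), a value that moved with the libraries used. It was -0.24 (edgeR adjusted p = 0.730) with CD8 replicates 3 to 5 alone. Without DP control replicate 1 it was -1.07 and called (edgeR adjusted p = 0.0213), while without DP control replicate 3 it was 0.03. In the cKO samples it was -0.37 ± 0.45 (edgeR adjusted p = 0.490), with -0.81 (called, edgeR adjusted p = 0.0252) without DP cKO replicate 1, 0.06 without DP cKO replicate 2 and -0.13 with CD8 replicates 3 to 5 alone.

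**Figure D3:**
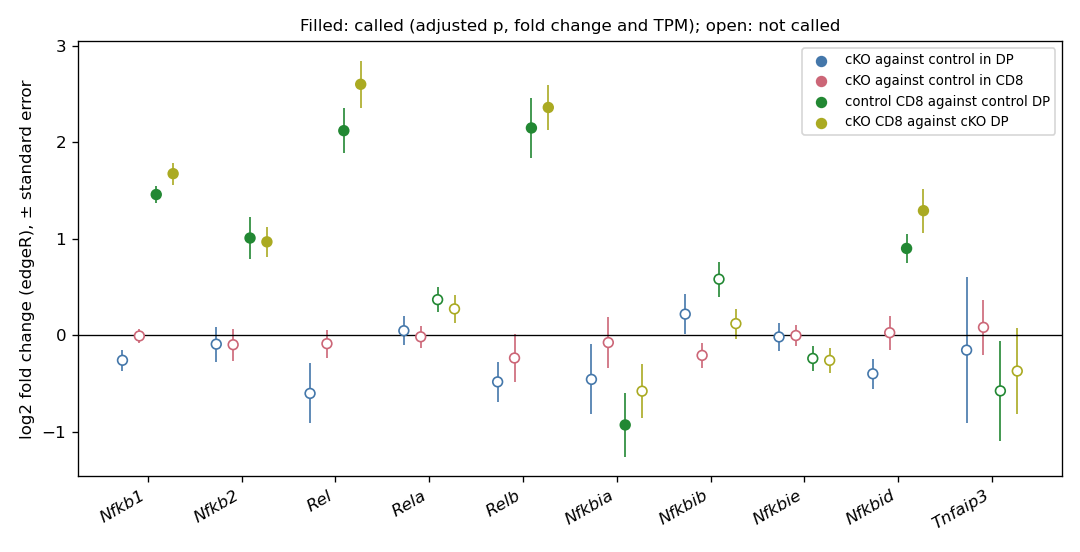
Log2 fold change of each member (edgeR, bars: standard error) for cKO against control in DP and in CD8 and for CD8 against DP cells in control and in cKO samples, filled where called. The 20 cKO values run from -0.60 to 0.22 and none is called, while Nfkb1, Nfkb2, Rel, Relb and Nfkbid are called higher in CD8 in both genotypes.

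As Tnfaip3 and Nfkbia did, the immediate early and stress genes read lowest in DP replicate 1 of each genotype. This list of 14 summed to 595.5, 1527 and 1974 CPM in DP control and to 470.5, 1106 and 1346 in DP cKO, with 0 or 1 gene at 0 in each of these samples. In CD8 control it summed to 2594, 2486, 2128, 2511 and 1754, and in CD8 cKO to 2646, 3099, 1970, 3798 and 1610. By mean TPM Jun was its most abundant gene in both DP groups and Nr4a1 in both CD8 groups. In DP 13 of the 14 were tested and all 13 had a negative log2 fold change (median -0.62), as did 5895 of all 11748 genes tested. EdgeR and DESeq2 each called 0, with 3 at an unadjusted edgeR p under 0.05, beside 9.07% of genes. With the replicate block edgeR called 2 lower, Egr1 (-0.61) and Nr4a1 (-0.62), beside 131 genes in all (17 without the block). That block is an alternative in DP, where 1 of 3 pairs was under the limit for pairing given below. In CD8 4 of 13 were negative (median 0.05), both tools called 0, and 3 were under 0.05, beside 5.55% of genes. The test of the difference between the 2 effects called 0 of 14 in both tools, with 4 under 0.05 and 1 called with the block. Control CD8 against control DP called 8 higher and 0 lower of 14 tested, among them Egr3 (3.13), Fosl2 (4.39), Hspa1b (5.33) and Hspa1a (5.51). Over all genes 22.8% were called higher and 23.1% lower. The part of these genes, or of what moves them, in the members' values was not tested.

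Compared per gene length, the members fell in the following order. In DP control Nfkbia and Tnfaip3 led with means of 902 ± 379 and 742 ± 549.5 TPM (SD, n = 3), and their ranges overlapped. Rela followed with 177 ± 18.8 TPM, inside the range that Tnfaip3 spanned, then Nfkb1 with 99.9 ± 7.97 and Nfkbie with 86.0 ± 9.13, which overlapped each other. Nfkbid stood at 66.2 ± 4.06 TPM without overlap with Nfkb2, the next, at 52.9 ± 7.30, which overlapped Nfkbib at 46.3 ± 9.82. Rel with 28.6 ± 6.81 and Relb with 21.5 ± 2.55 TPM came last and overlapped. The other neighbours, Rela and Nfkb1, Nfkbie and Nfkbid, and Nfkbib and Rel, did not. In DP cKO the means were 656 ± 442 for Tnfaip3, 644 ± 189.9 for Nfkbia, 178 ± 15.5 for Rela, 83.0 ± 4.44 for Nfkbie and 81.3 ± 3.93 for Nfkb1. Below these stood Nfkbib (52.6 ± 7.96), Nfkbid (49.1 ± 9.13), Nfkb2 (48.4 ± 7.10), Rel (18.5 ± 8.05) and Relb (15.0 ± 2.61). Neighbours in that order overlapped except Nfkbia and Rela, Rela and Nfkbie, Nfkb1 and Nfkbib, and Nfkb2 and Rel.

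In CD8 control Tnfaip3 (534 ± 216 TPM, SD, n = 5) and Nfkbia (503 ± 179) led again, followed by Nfkb1 (288 ± 7.14), Rela (241 ± 24.4), Rel (131 ± 29.4), Nfkbid (131 ± 25.6), Nfkb2 (112 ± 31.7), Relb (100.4 ± 38.8), Nfkbie (76.97 ± 6.62) and Nfkbib (73.2 ± 10.3). Only Nfkb1 and Rela, and Rela and Rel, were neighbours without overlap. Nfkb1 thus stood above Rela in each CD8 control and below it in each DP control. In CD8 cKO the order was Tnfaip3 (576 ± 198.5), Nfkbia (486 ± 155), Nfkb1 (293.5 ± 11.6), Rela (243.5 ± 27.3), Nfkbid (135 ± 36.0), Rel (127 ± 19.3), Nfkb2 (107 ± 12.2), Relb (87.8 ± 23.0), Nfkbie (78.7 ± 8.63) and Nfkbib (64.8 ± 5.21). There the neighbours without overlap were Nfkbia and Nfkb1, Nfkb1 and Rela, and Rela and Nfkbid.

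Summed by role, each CD8 sample held more subunit TPM than each DP sample, while the inhibitor sums of the cell types overlapped. This sum was chosen after the values were seen, is a description and carries no test. It counts the precursor genes Nfkb1 and Nfkb2 as subunits only, counts the nuclear Nfkbid as an inhibitor, and leaves out the atypical IkB gene Bcl3. The 5 subunits summed to 345, 399 and 395 TPM in DP control, 313, 351 and 361 in DP cKO, 821, 782, 923, 1023 and 819 in CD8 control, and 790.0, 902, 917, 856 and 833 in CD8 cKO. The 4 inhibitors summed to 648, 1395 and 1259 TPM in DP control, 620.2, 881 and 984 in DP cKO, 689, 589.8, 896, 1037 and 709 in CD8 control, and 635, 826, 890.4, 924 and 549 in CD8 cKO. Inhibitor over subunit TPM was 1.88, 3.49 and 3.19 in DP control and 1.98, 2.51 and 2.73 in DP cKO. In CD8 it was 0.839, 0.754, 0.971, 1.01 and 0.866 in control and 0.803, 0.916, 0.971, 1.08 and 0.659 in cKO. Each of the 6 DP samples, replicate 1 included, exceeded each of the 10 CD8 samples in this ratio.

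The make-up of the subunit sum differed as well. Rela held 45.3% to 48.9% of subunit TPM in DP control and 51.4% to 52.8% in DP cKO, but 24.0% to 33.6% in CD8 control and 24.1% to 32.5% in CD8 cKO. Rel held 6.002% to 8.19% in DP control and 3.83% to 7.83% in DP cKO, and 12.8% to 16.7% and 12.8% to 17.1% in the CD8 groups. Among the inhibitors Nfkbid held 5.05% to 9.91% in DP control and 11.7% to 29.2% in CD8 control, and Nfkbia held 72.8% to 85.2% in DP control and 48.2% to 71.4% in CD8 control. In the cKO samples Nfkbid held 4.495% to 9.32% in DP and 12.4% to 24.4% in CD8, while the shares of Nfkbia, 69.05% to 81.4% in DP and 53.8% to 72.0% in CD8, overlapped.

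**Figure D4:**
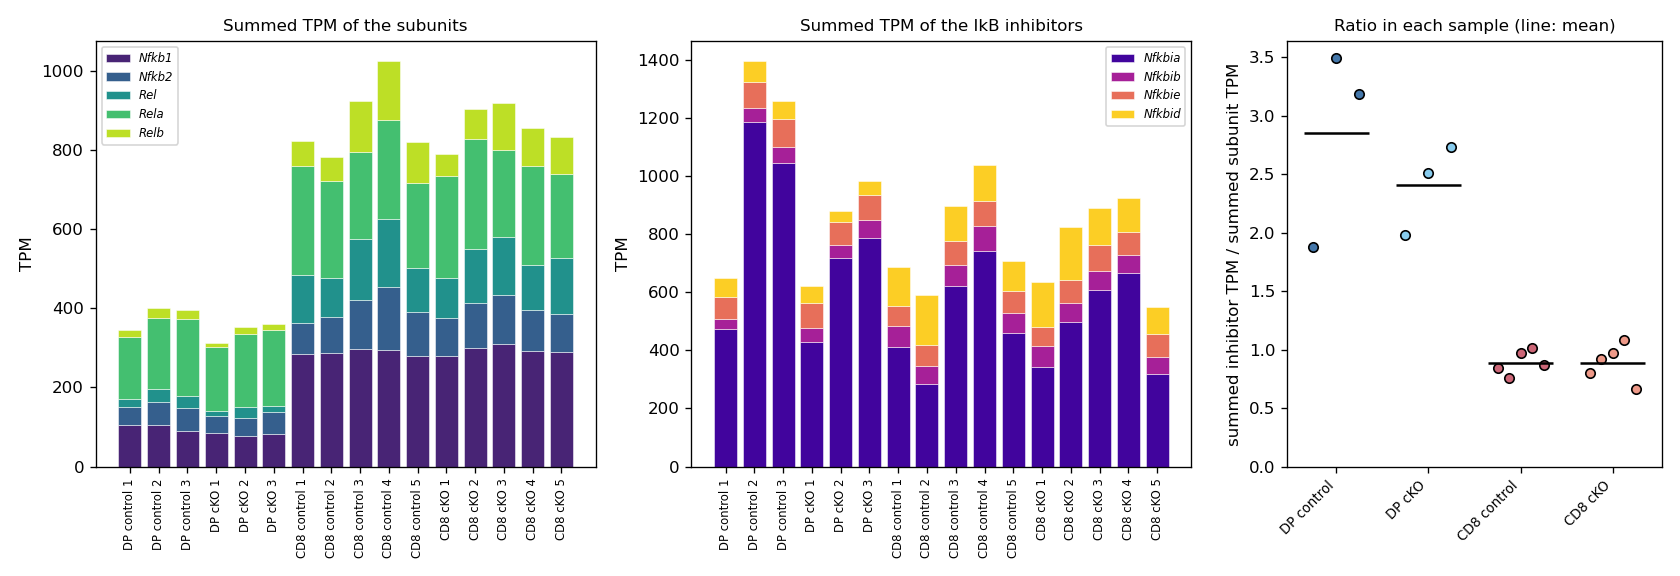
Summed TPM of the 5 subunits (left) and the 4 IkB inhibitors (middle) in each of the 16 samples, stacked by gene, and the ratio of inhibitor to subunit TPM by group (right, line: mean). The ratio lies between 1.88 and 3.49 in DP and between 0.659 and 1.08 in CD8 samples.

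The other genes of the pathway were read from lists. Of 16 receptors that signal to NF-kB, 12 were tested between control CD8 and DP cells, with 7 called higher and 0 lower (median log2 difference 1.91), among them Tnfrsf1b (3.01), Tnfrsf9 (2.51), Tlr1 (4.84) and Il18r1 (2.80). Of 22 kinases and adaptors, which carry the signal to IkB kinase, 10 were called higher and 2 lower (median 0.45), among them Ikbke (1.56), Malt1 (2.16), Tab3 (1.32) and Prkcq (0.84). Of 13 other restraints and atypical IkB genes, 12 were tested and 6 were called higher and 0 lower (median 0.54). Bcl3, an atypical IkB that binds the products of Nfkb1 and Nfkb2, differed by 5.20 (edgeR adjusted p = 2.4e-08). By size of p, Traf3 (1.69), Tank (1.88) and Cyld (0.65) came next. The cKO samples gave 7 receptors higher and 0 lower, 9 kinases and adaptors higher and 3 lower, and 6 restraints higher and 0 lower. Of the genes tested with a mean TPM of at least 1, 22.8% were called higher and 23.1% lower in control. In cKO samples these shares were 23.3% and 26.8%.

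Between cKO and control, edgeR and DESeq2 each called 0 genes of these 3 lists in either cell type. In DP 7 of 9 receptors tested were negative (median -0.18; 0 at an unadjusted p under 0.05), as were 16 of 22 kinases and adaptors (median -0.13; 2 under 0.05) and 11 of 12 restraints (median -0.19; 1 under 0.05). In CD8 the negative counts were 7 of 12 (2 under 0.05), 13 of 22 (0 under 0.05) and 5 of 12 (0 under 0.05). Of all genes 9.07% in DP and 5.55% in CD8 were under 0.05.

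Genes known as NF-kB targets, 18 in the list, mostly read lower in DP cKO samples. Of the genes tested with a mean TPM of at least 1, 9.07% had an unadjusted edgeR p under 0.05. In 7.25% each cKO sample read below each control. These held for 9 and 7 of the 16 targets tested, of which 15 had a negative log2 fold change (median -0.47). EdgeR called 0 of them and DESeq2 called 2 lower, Cd69 (edgeR -0.71, adjusted p = 0.129; DESeq2 -0.72, adjusted p = 0.00458) and Ccr7 (edgeR -1.07, adjusted p = 0.133; DESeq2 -1.08, adjusted p = 0.00263). With the replicate block edgeR called the same 2 (-0.71 and -1.03). Over all genes in DP edgeR called 17, DESeq2 159 and the block 131, with 1 of 3 DP pairs under the limit for pairing given below. Ccr7 read 30.9, 20.2 and 16.8 in DP control and 11.2, 11.1 and 10.01 in DP cKO. The list summed to 862, 953 and 1006 CPM in DP control and to 788, 835 and 774.5 in DP cKO, so each cKO sum lay below each control sum, with 1 or 2 of its genes at 0 in each sample. In CD8 7 of 16 were negative (median 0.03), 1 was under 0.05 (5.55% of genes were) and edgeR and DESeq2 each called 0. The test of the difference between the 2 effects called 0 of 16 targets in edgeR and in DESeq2. There 4 had an unadjusted edgeR p under 0.05, beside 639 of 12131 genes, and the replicate block called 1, beside 33 genes. The sums were 1336, 1300, 2156, 2498 and 1859 in CD8 control and 1356, 1500, 2115, 2277 and 1547 in CD8 cKO, lowest at replicates 1 and 2 as Relb was. Control CD8 against control DP called 10 targets higher and 2 lower (median 1.27), among them Ccr7 (4.65), Traf1 (1.73), Icam1 (1.51) and Bcl2l1 (-2.69), and the cKO samples called 11 higher and 1 lower. Over all genes 22.8% were called higher and 23.1% lower in control, and 23.3% and 26.8% in cKO samples.

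Marker lists of maturity and of other cells are given beside these values. Over all genes tested in DP with a mean TPM of at least 1, 9.07% had an unadjusted edgeR p under 0.05. In 7.25% each cKO sample read below each control, and in 7.86% above it. DESeq2 called 159 genes in DP, edgeR 17 and edgeR with the replicate block 131. The block is an alternative there, since 1 of 3 DP pairs was under the limit for pairing given below. In DP 9 of the 10 mature CD8 markers were negative (median -0.63), 5 under an unadjusted p of 0.05 and 5 without overlap between the groups, and edgeR called 0 while DESeq2 called 2 lower, Itgae (-1.18) and Ccr7, and edgeR with the replicate block 2 lower. The DP markers split 5 and 5 (1 under 0.05; 0 called by edgeR or DESeq2). Of 9 myeloid and dendritic cell markers, 7 were negative in DP (median -0.98), 4 were under 0.05 and 4 had no overlap, and edgeR called 0 while DESeq2 called 3 lower, Lyz2 (-1.65), H2-Aa (-1.28) and Cd74 (-1.10). Their sum was 84.7, 169.8 and 74.1 CPM in DP control and 44.1, 58.1 and 70.4 in DP cKO, with Cd74 the highest by mean TPM and 0 of the markers at 0 counts. In CD8 control the sum was 81.4, 49.5, 25.9, 36.5 and 29.2, and in CD8 cKO 59.1, 55.4, 38.6, 40.9 and 37.6. The DP cells had been sorted. Myeloid cells express the members too, and the part of these markers in the lower Nfkb1 and Nfkbid readings in DP cKO was not tested. Control CD8 against control DP called 5 of 8 of them lower and 0 higher, among them Itgam and Lyz2. Over all genes these shares were 23.1% and 22.8%.

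B cell markers, of which Cd79b had the highest mean TPM in each group, summed to 23.4, 32.8 and 20.1 CPM in DP control, 17.6, 19.7 and 21.1 in DP cKO, 44.5, 16.8, 11.03, 9.41 and 14.4 in CD8 control and 29.0, 20.8, 10.7, 16.8 and 18.2 in CD8 cKO. Between control CD8 and DP cells 1 of 6 tested was called lower and 0 higher. In that contrast 23.1% of all genes were called lower and 22.8% higher. The 4 tested in DP were all negative, 2 of them under an unadjusted p of 0.05. Thymic epithelial markers summed to 2.89 to 11 CPM over the samples, with Epcam the highest by mean TPM in DP control and Ccl25 in the other groups, 0 to 4 of the 6 at 0 in a sample, and 1 of 2 tested called lower in control CD8. NK and gamma-delta T cell markers, 5 of 6 in the tables, summed to 1.68 to 3.93 CPM in DP and to 17.8 to 43.9 in CD8 samples, with Sox13 the highest by mean TPM in DP and Eomes in CD8, and 4 of 4 tested were called higher in control CD8. CD4 lineage and regulatory T cell markers, with Ikzf2 the highest by mean TPM in each group, summed to 181 to 263 CPM in DP and to 275 to 753 in CD8 samples, with 2 called higher and 1 lower in control CD8. Of 6 erythroid markers 4 were at 0 in every sample and the sum stayed under 0.4 CPM. Between cKO and control edgeR called 0 genes of these 5 lists in either cell type, with 2 B cell and 2 CD4 lineage markers in DP, and 1 NK and 1 CD4 lineage marker in CD8, at an unadjusted p under 0.05. Such a p was found for 9.07% of all genes in DP and 5.55% in CD8. DESeq2 called Zbtb7b lower in DP (-1.09), and in CD8 Sox13 higher (1.29) and Foxp3 lower (-1.16), as did edgeR with the replicate block (-1.06, 1.33 and -1.18). Over all genes DESeq2 called 159 in DP and 53 in CD8, and the block 131 and 31. In DP 1 of 3 pairs was under the limit for pairing. Of the mature CD8 and the myeloid markers in CD8 cells, edgeR and DESeq2 called 0, with 1 of each at an unadjusted edgeR p under 0.05. The part of these cells in the members' values was not tested.

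Last, genes were ranked by how closely they followed each member over the 16 samples, by Pearson's r of log2 CPM among 12130 genes. The points come from 2 cell types and 2 tables, and r within a cell type was not computed. Nfkb1 was most like Cd7 (0.998), Bcl3 (0.997) and Nkg7 (0.996), and Rel most like Patl1 (0.985), Fosl2 (0.985) and Cd274 (0.984). For Relb they were Vps37b (0.985), Orai1 (0.984) and Arid5a (0.983), and for Nfkb2 they were Pnp2 (0.958), Tnip1 (0.953) and Relb itself (0.953). Nfkbid ran with Gpr137b (0.957), Nab2 (0.950) and Egr1 (0.950), and Nfkbia with Hexim1 (0.914), Zfp954 (0.912) and Bcl10 (0.907). Tnfaip3 ran with Oser1 (0.946), Siah2 (0.938) and Klf11 (0.929), Rela with Supt6 (0.931) and Fmnl1 (0.929), Nfkbib with Usf2 (0.922), Cog1 (0.919) and Tbrg4 (0.877), and Nfkbie with Zfp775 (0.910), Lrrc47 (0.905) and Zfp954 (0.904).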

How the data were processed

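The authors deposited raw fragment counts per gene, 1 table for 6 DP samples and 1 for 10 CD8 samples, made by the submitters' processing notes with fastp 0.13.1, HISAT2 2.1.0 (mm10) and featureCounts 1.6.1; the table of DP samples also holds each gene's exonic length, per the file headers. CPM and TPM were computed here. Each comparison was fitted on all its genes with edgeR 4.0.16 (TMM, filterByExpr, quasi-likelihood F test) in R 4.3.3 with limma 3.58.1, with Benjamini-Hochberg adjustment over all genes tested. A call took an adjusted p under 0.05 together with a 1.5-fold change and a mean TPM no lower than 1, and for the difference between the cKO effects the adjusted p alone. Single values were also tested by an exact two-sided permutation test. Alternatives were DESeq2 1.42.0, RLE and upper-quartile scaling, other filters, a joint fit, adjusted p alone, each library left out, and replicate number as a block. In CD8 cells residual r between control and cKO samples of the same number was 0.1 to 0.389 (mean 0.309), against a mean of -0.0803 for other pairs. The lowest was just over the limit of 0.1, so the block values stand beside the CD8 counts. Only 6 of 10 samples were most like their own number. Some other pairs were as alike: control 1 with cKO 2 (0.317), control 2 with cKO 1 (0.324) and control 4 with cKO 3 (0.46, beside 0.35 for 4 with 4). The numbers are thus not shown to be matched pairs. In DP cells the mean was 0.38 against -0.181, with 1 of 3 pairs (0.0803) under the limit. Control replicate 2 was there closer to cKO replicate 3 (0.367), and block values in DP are an alternative only. Members and lists were chosen with earlier results of these data known. Named genes were the members, Tox4, the 4 called genes with the smallest p per list and comparison, each list's most abundant gene by mean TPM and the 3 genes most like each member (log2 of CPM + 1); Jun, Fos, Cd4, Klf2, the other genes plotted by replicate number, and the genes that DESeq2 or the replicate block called between cKO and control were named after their values were seen. The values of 2 genes that these rules name are not reported here. Promoter sequences were RefSeq's on GRCm38.p6. Python 3.11.15 with numpy 2.4.6, pandas 2.3.3, scipy 1.17.1 and matplotlib 3.10.9 made tables and figures, and the fit was tested on simulated data. No scaling moved the median of all genes by over 0.1 (log2).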

Additional observations from a re-analysis of the deposited data

Results flagged for a closer look

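Dixon's test for a value far from the rest was applied to the 10 members and Tox4 in the CD8 control and CD8 cKO samples. In 0 of these 22 groups did a value pass its limit, where chance alone gives about 1 in 20. The DP groups of 3 samples were too small for it.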

How the results depend on the processing

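Over the alternatives, 139 of 150 member values kept their sign and side of the threshold for cKO against control in DP (11 turned sign), 165 of 200 in CD8 (35 turned sign), 150 of 170 for control CD8 against control DP (6 lost a call, 13 gained one, 1 turned sign), 165 of 170 for the cKO groups (4 gained a call, 1 turned sign) and 167 of 190 for the difference between effects (23 turned sign). Members called numbered 0 under every alternative in DP, CD8 and the difference, 6 to 8 for control CD8 against control DP and 5 to 7 for the cKO groups. The cause of these changes was not tested.

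Genes called in DP moved from 17 to 159 with DESeq2, 74 with no filter, 42 in a joint fit, 131 with the replicate block, 72 with replicates 2 and 3 alone (chosen after seeing the data) and 0 to 8 with a library left out. In CD8 they moved from 11 to 53 with DESeq2, 31 with the replicate block, 5 without both samples numbered 1, 5 with replicates 3 to 5 alone (also chosen after seeing the data) and 4 to 20 with a library left out. For the difference they moved from 13 to 33 with the block, 37 with DESeq2 and 0 to 11 with a library left out.

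Signs turned for Nfkbie in DP with upper-quartile scaling (0.00197) and in CD8 with RLE (0.00082), DESeq2 (0.00033) and no filter (3.7e-05), and for Nfkbid in CD8 with the replicate block (-0.0033). Without both CD8 samples numbered 1 they turned for Nfkb1 (0.011), Rela (0.023), Nfkbie (0.035) and Nfkbid (-0.0092), and with CD8 replicates 3 to 5 alone for Nfkbid (-0.087) and Tnfaip3 (-0.013). The difference between effects turned for Nfkb2 with the block (0.029), RLE (0.0037) and DESeq2 (0.0042).

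With 1 library left out, log2 values that turned sign ranged in DP from -0.25 to 0.022 (Nfkb2), -0.14 to 0.060 (Nfkbie), -0.070 to 0.15 (Rela) and -0.65 to 0.44 (Tnfaip3). In CD8 they ranged from -0.028 to 0.030 (Nfkb1), -0.20 to 0.081 (Nfkb2), -0.18 to 0.043 (Rel), -0.066 to 0.062 (Rela), -0.25 to 0.12 (Nfkbia), -0.043 to 0.054 (Nfkbie), -0.11 to 0.16 (Nfkbid) and -0.14 to 0.27 (Tnfaip3). Tnfaip3 ranged from -1.07 to 0.025 for control CD8 against control DP and from -0.81 to 0.062 for the cKO groups. The difference between effects ranged from -0.12 to 0.17 (Nfkb2), -0.072 to 0.13 (Nfkbie), -0.16 to 0.049 (Rela) and -0.36 to 0.72 (Tnfaip3).

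Calls changed for 4 members between cell types. Nfkbia lost its call for control CD8 against control DP in the 6 settings given with its values, and for the cKO groups it gained one with no filter (-0.61) as well. Nfkbib was called in 11 settings, among them RLE (0.59), DESeq2 (0.59) and a minimum of 10 counts (0.59), and Rela when the adjusted p alone was used.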
